A study of Xenopus tropicalis with 2 samples.

Results

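The cluster described here holds the cells that the authors' deposited cell table names Bipotent Progenitor and places in the broad class Mesoderm. It has 123 of the 3707 cells in that table. The cells came from tadpole tails of Xenopus tropicalis of a transgenic line in which the pax6 promoter drives GFP, and the cryga promoter of the lens and the actc1 promoter of muscle drive RFP. Tails of several tadpoles were pooled and dissociated, GFP-positive cells were sorted with a gate set on wild-type tadpoles, and their transcripts were counted by droplet-based single cell RNA-Seq.

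Both groups carried the same transgenes. The 24hpa group was regenerated tail tissue taken 24 hr after the posterior end of the tail was amputated at NF stage 41, which is 3 days post fertilization, and the uninjured group was tail tips of that stage with no earlier amputation. Each group was 1 library of 1 pool, so no difference below has a replicate check, no p-value is given, and each 95% interval covers counting error only. Amputation, the extra day of age, the tissue taken and the library differ together between the groups and cannot be told apart.

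Cells of 24hpa had a median of 10374.5 unique molecular identifiers (UMIs, each of which counts 1 captured transcript), against 8289 in uninjured cells. The libraries held 1090 and 2617 cells, and they shared 1 cell barcode, which was not in the cluster. Cells of the cluster were shallow: their median was 4790.5 UMIs at 24hpa, the lowest of 18 clusters, and 4240 in the uninjured library, the second lowest.

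Endothelium is the cell layer that lines blood and lymph vessels. Its cells are held together by VE-cadherin, the product of cdh5, they receive growth signals through receptors such as Tie2 (tek), Tie1 and the VEGF receptors, and their identity is set by transcription factors of the Ets family such as Erg and Fli1 and of the SoxF family such as Sox7 and Sox17. Secreted Egfl7 surrounds growing vessels, Apold1 is an early response protein of endothelial cells, and Pmp2 is a lipid-binding protein best known from the myelin of Schwann cells. A bipotent progenitor of the tail, in contrast, is usually a neuromesodermal cell, which is recognised by joint expression of brachyury (t) and sox2 and can form both spinal cord and muscle.

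The cluster took the same share of both libraries within counting error. It held 36 of 1090 cells at 24hpa, or 3.30% (exact Clopper-Pearson 95% interval 2.32 to 4.54), and 87 of 2617 uninjured cells, or 3.32% (2.67 to 4.08). The difference was -0.02 percentage points (Newcombe interval -1.20 to 1.36).

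Genes of a neuromesodermal progenitor were not higher in the cluster. UMIs were summed over cells and divided by all UMIs of those cells, which gives CPM, a count scaled to a common total. A gene is called higher or lower where the exact Poisson intervals of the CPM of both groups did not overlap. Among the 6047 genes with at least 10 UMIs in the cluster, 25.0% were higher in the cluster than in all other cells and 7.52% were lower. Of 15 neuromesodermal genes matched, 3 reached 10 UMIs, of which 0 were higher and 2 lower than in all other cells. The list summed to 142 CPM in the cluster, against 258 CPM in all other cells. Brachyury (t) had 2 UMIs at 24hpa and 7 in the uninjured library, and sox2 had 11 and 21 UMIs. The summed values thus show no excess of these markers in the cluster. All other cells include the Spinal Cord Progenitor and Notochord clusters, and t is also on the notochord list and sox2 on the neural progenitor list. Joint expression of t and sox2 in single cells was not scored, so the label itself was not tested.

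Endothelial genes did stand out. Of 58 endothelial genes listed, 25 were matched, and 24 of them had at least 1 UMI in the cluster. The list summed to 1178 CPM over the cluster, against 139.8 CPM in all other cells. The minimum of 10 UMIs lies in the cluster itself, where genes this rare elsewhere pass it only if the cluster holds them, so the number of them called is no support. These genes were not spread through the cluster, however, as the values of the 4 markers given for it show.

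VE-cadherin (cdh5) was found in 0 of 36 cells at 24hpa and in 11 of 87 uninjured cells, with 0 and 92 UMIs. All 3584 other cells together had 9 cdh5 UMIs, and in Goblet Cells, an epidermal type that should lack it, 1 of 157 uninjured cells had a UMI at a median depth of 5584 UMIs, against 4240 UMIs in the cluster. egfl7 had 0 UMIs at 24hpa and 99 in 14 of 87 uninjured cells. It was also found in 14.0% of Dermomyotome cells and 12.3% of Myotome cells of the uninjured library, although at 13.2 and 21.6 CPM, against 181 CPM in the uninjured cells of the cluster.

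The other markers followed the same split. apold1 had 1 UMI at 24hpa and 146 UMIs in 20 of 87 uninjured cells, and pmp2 had 2 UMIs at 24hpa and 151 UMIs in 9 of 87 uninjured cells. Outside the cluster apold1 was found most widely in Skeletal Muscle, in 28.8% of 59 cells at 24hpa and 14.1% of 412 uninjured cells. pmp2 outside the cluster was concentrated in Other 2 at 24hpa, an unnamed cluster in which 5 of 11 cells held 30 of the 66 UMIs. Of the 4 markers, cdh5 was thus the one nearly restricted to the cluster.

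A cell was counted as carrying a list when it had at least 3 UMIs from at least 2 of its genes. By this rule 0 of 36 cells at 24hpa carried the 4 given markers, which allows a share of up to 8.33%, against 12 of 87 uninjured cells, or 13.8% (7.34 to 22.9). The difference was -13.8 percentage points (-22.6 to -2.58). As a share of all cells of each library, these cells of the cluster were 0 of 1090 at 24hpa (up to 0.275% by the same limit) and 12 of 2617 uninjured cells (0.459%). Outside the cluster 1 cell carried the markers, a Skeletal Muscle cell at 24hpa. Over all cells the counts were thus 1 at 24hpa and 12 in the uninjured library. The 12 cells held 150, 55, 52, 49, 34, 34, 26, 23, 20, 16, 8 and 4 UMIs of the given markers, and the cells just below the threshold held 3, 2 and 2. The 2 marker-bearing cells with the lowest sums thus lie near the threshold, and the others do not.

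**Figure D1:**
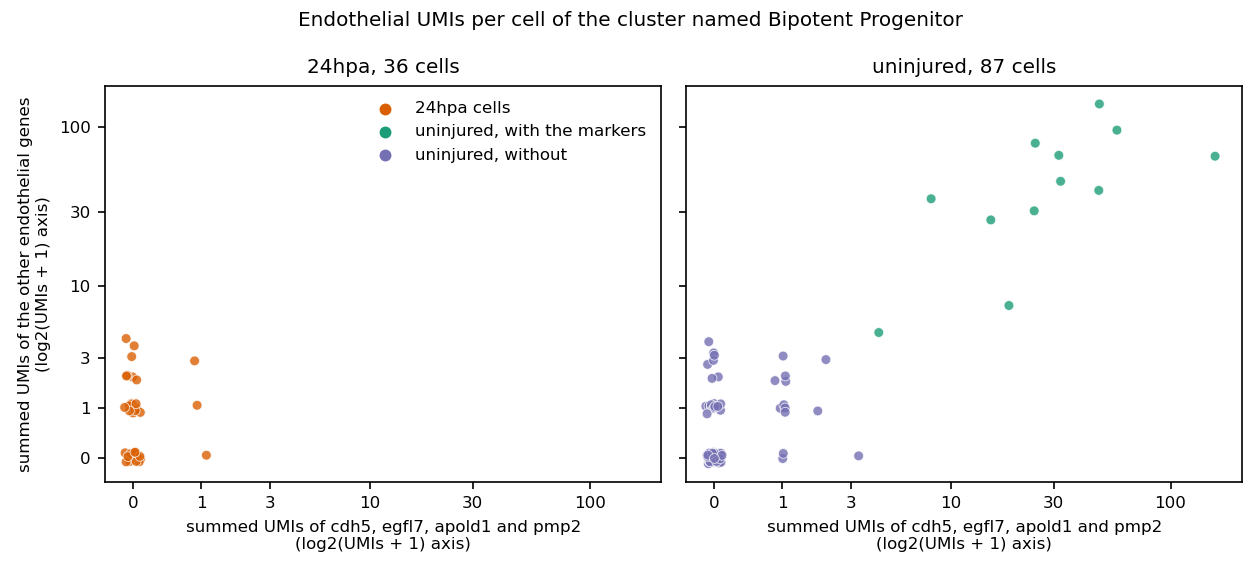
Each point is 1 cell of the cluster, with UMIs of the 4 given markers against UMIs of the other endothelial genes (both axes log scale after adding 1) for 24hpa and uninjured cells. The 12 marker-bearing uninjured cells stand at 4 to 150 marker UMIs and 5 to 136 other endothelial UMIs, while the 36 cells of 24hpa hold at most 1 and 4.

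The 12 marker-bearing cells held other endothelial genes as well, though to different degrees. Beside the given markers they held a median of 43 UMIs (5 to 136) from 12.5 other endothelial genes (4 to 18). The other 75 uninjured cells held a median of 0 UMIs (0 to 4), and the 36 cells at 24hpa a median of 1 UMI (0 to 4). The UMI ranges thus did not overlap, although the nearest values were 5 and 4. The ranges of genes did meet, since cells at 24hpa held up to 4 other endothelial genes. The cell with the lowest marker sum, 3 UMIs of apold1 and 1 of egfl7, held 0 UMIs of cdh5, tek, tie1, erg and fli1. Depth differed in the same direction, with a median of 10283 UMIs (3657 to 23119) in the marker-bearing cells and 3766 UMIs (2679 to 31545) in the other uninjured cells. Among 4996 genes with at least 10 UMIs, 12.6% were higher in the marker-bearing cells than in the other uninjured cells and 11.8% were lower. Of the 25 endothelial genes, 24 had at least 1 UMI in the 12 cells and 12 in the other 75. The 12 cells were chosen by these markers and the clusters were built on all genes, so these values describe the cells and are no test.

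Receptors came first among the endothelial genes. Tie2 (tek), the angiopoietin receptor, had 35 UMIs in the 12 marker-bearing cells and 2 in the other 75 uninjured cells, with 0 UMIs at 24hpa and 3 UMIs in all 3584 other cells. Its partner tie1 had 26 UMIs in the marker-bearing cells and 0 in the other uninjured cells, and stab2, a scavenger receptor of sinusoidal and lymphatic endothelium, had 33 and 3. The apelin receptor aplnr had 49 and 5 UMIs and was less particular to the cluster, with 187 UMIs in all other cells. kdr, a VEGF receptor, was almost undetected, with 1 UMI in the marker-bearing cells and 1 UMI in all other cells. The co-receptor nrp1 had 41 UMIs in the marker-bearing cells and 12 in the other uninjured cells.

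Junction and membrane proteins gave the same picture. The adhesion protein esam had 32 UMIs in the marker-bearing cells and 0 in the other uninjured cells, and the tight junction protein cldn5 had 115 and 6. The endothelial membrane protein myct1 had 36 UMIs in the marker-bearing cells and 0 in the other uninjured cells, with 2 UMIs in all other cells of the table. plvap, which forms the diaphragms of fenestrated capillaries, had 11 UMIs, all of them in the marker-bearing cells, and 0 UMIs in all other cells of the table. Caveolin (cav1) was higher in them too, at 158 against 36 UMIs, but is shared with the notochord.

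Among transcription factors, fli1 had 45 UMIs in the marker-bearing cells and 0 in the other uninjured cells, and erg had 30 and 1. The SoxF genes sox7 and sox17a had 34 and 43 UMIs in the marker-bearing cells, against 0 and 1 in the other uninjured cells. The flow-responsive factor klf2 had 36 and 6 UMIs, and lyl1, a factor of blood and endothelial cells, had 17 and 0. gata2, a factor of blood progenitors and endothelium, had 13 UMIs in the marker-bearing cells and 4 in the other 75. tal1 had 2 UMIs in the marker-bearing cells and 4 in the others, and lmo2 had 3 and 0. A list of genes of blood and vessel founders, to which fli1, lyl1, gata2, tal1 and lmo2 belong, was carried in the sense above by 9 of the 12 marker-bearing cells, and by 1 of the other 75. The list also holds ldb1, with 13 and 15 UMIs in these cells and 3132 UMIs in all other cells. The marker-bearing cells were deeper, and this count was not made at equal depth.

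Genes of single vessel types differed in how many of the 12 cells held them. A list of arterial, venous, tip cell and lymphatic genes was carried by 27 of 87 uninjured cells of the cluster, among them all 12. At 24hpa 1 of 36 cells carried it. The list also holds widely found genes such as cxcr4 and notch1, with 2572 and 2240 UMIs in all other cells. stab2 was found in 8 of the 12. Arterial genes were gja4, which encodes connexin 37, and the ligand efnb2, which was found in 8 cells. gja4 had 46 UMIs in 6 of the 12 cells, of which 33 were in 1 cell that also held 16 of the 38 efnb2 UMIs, 75 of the 158 cav1 UMIs and 13 of the 14 UMIs of rgs5, a pericyte gene. The venous factor nr2f2 had 14 UMIs in 3 cells, against 9 UMIs in the other 75 uninjured cells. Of the 14, 10 were in the cell with the most pmp2. esm1, a tip cell gene, had 33 UMIs in 5 cells, with 16 in that same cell. The ligand apln, another tip cell gene, had 13 UMIs in 2 cells, 11 of them in 1 cell, and 12 UMIs in the other 75. aplnr was found in 10 of the 12. cdh5 was found in 10 cells, egfl7 in 10, pmp2 in 9 and apold1 in all 12. The 2 cells without cdh5 were those with the fewest genes detected, 1105 and 1470.

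**Figure D2:**
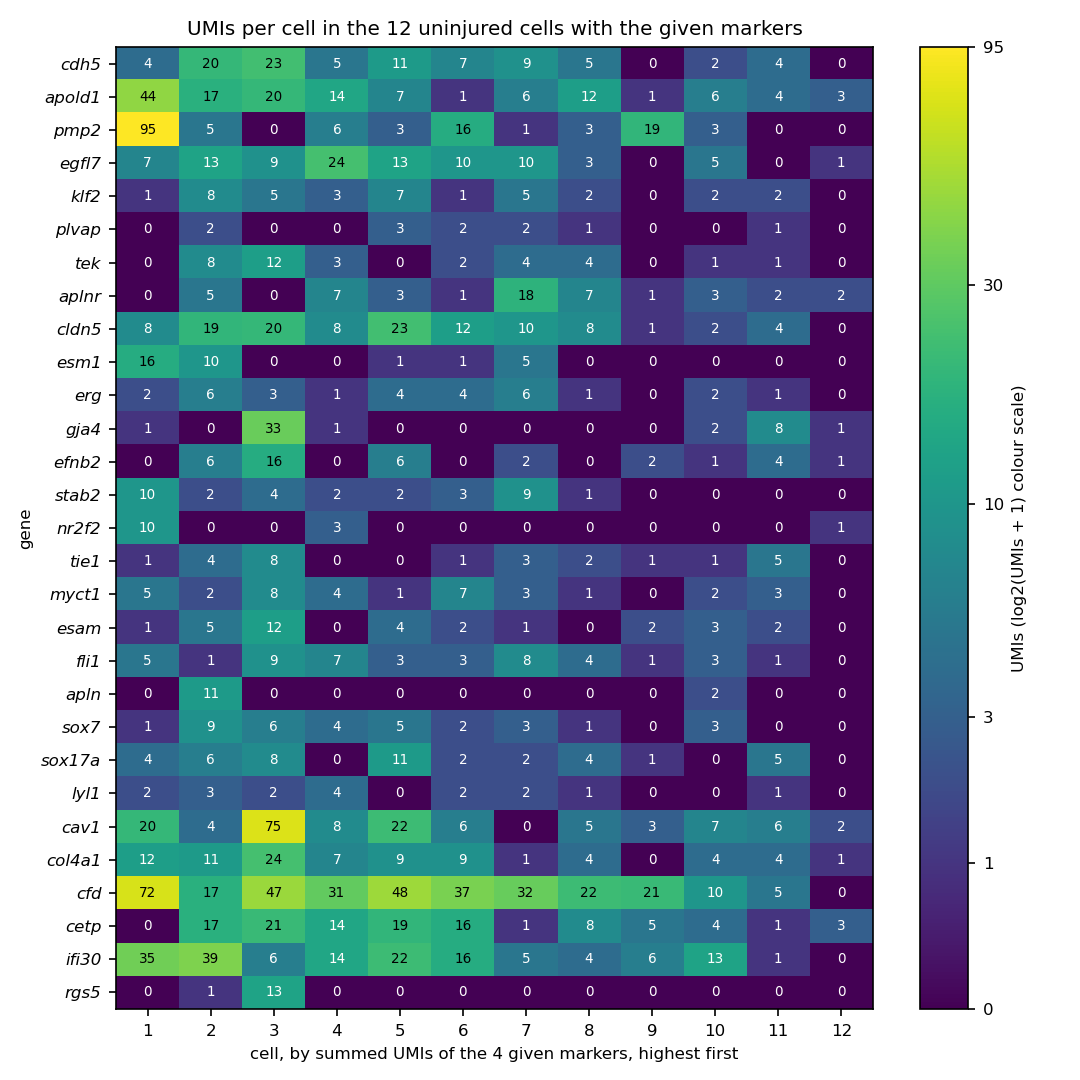
Heat map of UMIs per gene (rows, colour on a log scale) in the 12 marker-bearing uninjured cells (columns, ordered by the sum of the 4 given markers). cldn5, fli1 and cfd are found in 11 cells each, efnb2 and stab2 in 8 each, and gja4, esm1, nr2f2, apln and rgs5 in 2 to 6.

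pmp2 rested largely on 1 cell. That cell held 95 of the 151 uninjured UMIs, and without it pmp2 stood at 105 CPM in the uninjured cells of the cluster rather than 275 CPM, against 8.75 CPM at 24hpa (log2 ratio -3.59). apold1, egfl7 and cdh5 had 44, 24 and 23 UMIs in their highest cell, and their log2 ratios without it were -5.45, -3.42 and -3.32. The last 2 are bounds, since 24hpa had 0 UMIs, for which 3 UMIs were set.

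Of the glia genes compared, prx alone was higher together with pmp2 in the marker-bearing cells. Of 22 glia genes matched, 6 reached 10 UMIs. Of these, 4 were higher and 1 lower in the cluster than in all other cells, against 25.0% and 7.52% of all genes compared. In the marker-bearing cells 2 were higher than in the other uninjured cells, against 12.6% of all genes compared. Those 2 were pmp2 and prx, which encodes periaxin, a protein of myelinating Schwann cells that had 96 UMIs in the marker-bearing cells and 35 in the other uninjured cells. The myelin genes mpz and mbp and the neuregulin receptor erbb3 had 0 UMIs in the whole cluster, but only 4, 22 and 61 UMIs in all other cells. Genes this rare cannot show whether a Schwann cell program was absent. egr2, a factor of myelination, had 1 UMI. sox10, the factor of crest and glia, had 2 UMIs at 24hpa and 5 in uninjured cells, 2 of the 5 in the marker-bearing cells. pmp22 was spread over 80 of 87 uninjured cells.

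Leukocyte genes were mixed. Their list was carried by 5 of the 12 marker-bearing cells, 2 of the other 75 uninjured cells and 2 of 36 cells at 24hpa. Of 19 leukocyte genes matched, 3 reached 10 UMIs. Over all genes compared, 12.6% were higher in the marker-bearing cells than in the other uninjured cells. The leukocyte genes higher in them were cxcr4 and arhgdib, with 38 and 18 UMIs against 29 and 3 in the other uninjured cells. Both are also used outside blood. The leukocyte genes spi1, lyz and mpo had 0 UMIs in the whole cluster. ptprc, the CD45 gene, had 2 UMIs in the cluster, both in the other uninjured cells. Of the smooth muscle and pericyte list, cnn1, smtn, foxc1 and rgs5 were higher in the marker-bearing cells (93, 14, 11 and 14 UMIs, against 47, 5, 3 and 0), whereas acta2, the actin of smooth muscle, had 0 UMIs in them.

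The 20 genes that lead the cluster over all other cells were mostly genes of the 12 cells. They were ranked by fold among genes with at least 50 UMIs. All 20 were higher in the marker-bearing cells than in the other uninjured cells, against 12.6% of all genes compared. Only 5 were on the endothelial or glia lists. The complement protease gene cfd had 342 UMIs in the marker-bearing cells and 6 in the other uninjured cells. The lysosomal thiol reductase gene ifi30 had 161 and 5, and the lipid transfer gene cetp had 109 and 2. The Ets factor gene elk3 and the Notch ligand gene jag2 were also among them. Between the libraries, 19 of the 20 were lower at 24hpa, against 16.3% of all genes compared. The exception was elk3, which was not called, with 10 UMIs at 24hpa and 55 in uninjured cells. The ranking was made on the whole cluster, where the marker-bearing uninjured cells raise these genes. Both counts therefore describe the genes and are no support.

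Endothelial genes had fewer UMIs at 24hpa in the cluster as a whole: 9 of the 25 matched had at least 1 UMI at 24hpa, among 228537 UMIs in all, and 24 of the 25 in uninjured cells, among 548276. In the comparison of 36 cells at 24hpa with 87 uninjured cells, 3109 genes had at least 30 UMIs, of which 465 (15.0%) were higher at 24hpa and 507 (16.3%) lower, with a median log2 ratio of 0.06. Of 15 endothelial genes that reached this minimum, 0 were higher and 14 were lower, with a median log2 ratio of -2.36. They reached the minimum mostly through the uninjured cells, so this count describes them and is no support. erg was not called, with 21.9 CPM at 24hpa and 56.5 CPM in uninjured cells (log2 ratio -1.37, interval -3.09 to 0.01). cdh5 had 0 CPM at 24hpa and 168 CPM in uninjured cells, a log2 ratio of at most -3.68 (interval -5.98 to -2.08). apold1 had 4.38 and 266 CPM, a log2 ratio of -5.93 (-11.24 to -3.43). gja4 had 4.38 and 83.9 CPM (-4.26, -9.60 to -1.71), and cldn5, which other cells of the tail also express, had 65.6 and 221 CPM (-1.75, -2.63 to -0.97).

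The endothelial counts behind this difference were held by the 12 cells. Summed over the endothelial list, the cells at 24hpa stood at 149 CPM (103 to 208), the marker-bearing uninjured cells at 6104 CPM (5694 to 6536) and the other uninjured cells at 143 CPM (109 to 184). All other cells of the table stood at 139.8 CPM. RNA in barcodes with 1 to 100 UMIs, which hold no called cell and are taken here as free RNA, gave 86.2 CPM at 24hpa and 171 CPM in the uninjured library. The intervals of the cells at 24hpa and of the other uninjured cells held the value of all other cells and overlapped those of free RNA in their own library (63.1 to 115 and 144 to 200.1 CPM). When the 12 cells were left out, an alternative added after seeing the data, 2602 genes could be compared, 495 of them (19.0%) higher at 24hpa and 473 (18.2%) lower, and 0 endothelial genes reached the minimum. With TMM factors, an alternative scaling, the same comparison had 269 genes (10.3%) higher and 625 (24.0%) lower. The 12 cells were all uninjured and were chosen by markers of which cdh5 and egfl7 are on the endothelial list. Leaving them out therefore had to lower that list in the uninjured cells, so its values here describe the cells and are no test.

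**Figure D3:**
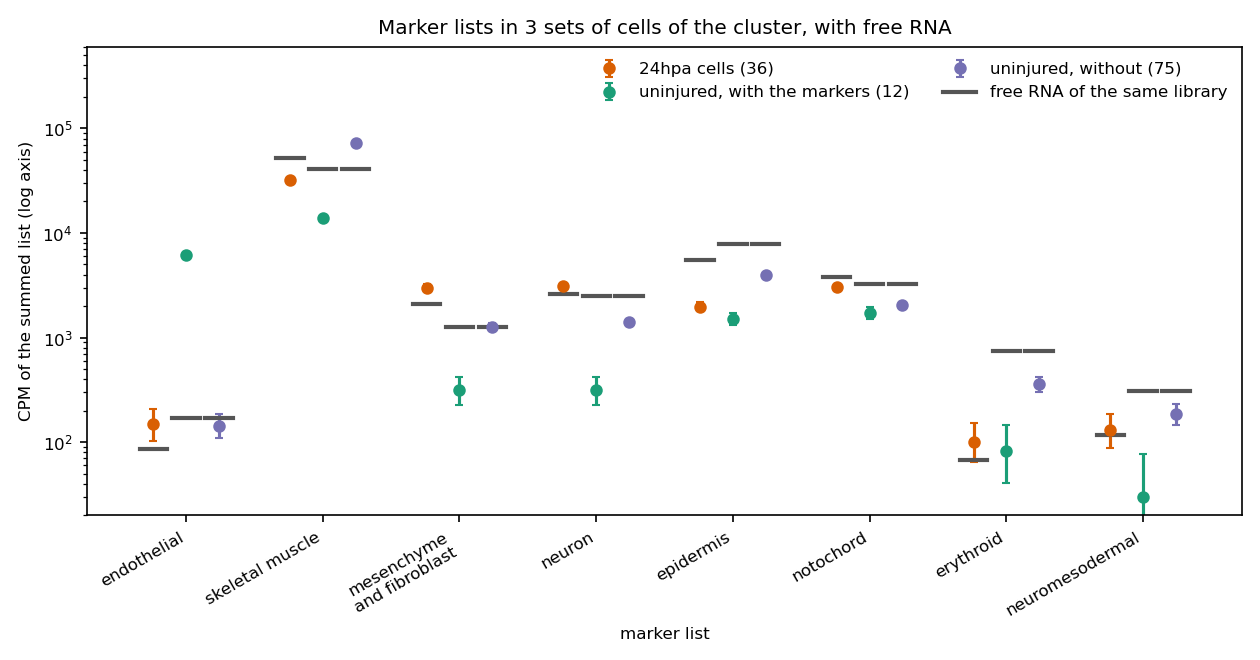
Summed level of each gene list in CPM (log axis, with exact Poisson 95% intervals) for 24hpa cells, marker-bearing uninjured cells, other uninjured cells and free RNA of each library. The endothelial list stands at 6104 CPM in the marker-bearing cells and between 86.2 and 171 CPM elsewhere, whereas the muscle list is lowest in the marker-bearing cells, at 14005 CPM.

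Cells with a few endothelial UMIs were found outside the 12 as well. The full endothelial list was carried by 3 of 36 cells at 24hpa, or 8.33% (1.75 to 22.5), and by 21 of 87 uninjured cells, or 24.1% (15.6 to 34.5), 12 of which were the marker-bearing cells. The same list was carried by more cells in other clusters: 62.5% of 8 and 74.0% of 50 Dopaminergic Neuron cells at 24hpa and in the uninjured library, and 30.4% and 44.4% of Myotome cells. Carriage by this rule is thus no mark of endothelium, and at 24hpa the 3 cells held 11 endothelial UMIs together. Between the 3 and the 21 cells, 1264 genes could be compared, of which 98 (7.75%) were higher at 24hpa and 120 (9.49%) lower, and the endothelial list stood at 321 CPM against 3636 CPM.

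Outside the 12 cells, the cluster held transcripts of several lineages in the same cells. The lists scored were 5: skeletal muscle, neuron, epidermis, notochord, and mesenchyme with fibroblasts. Cells were thinned to 3000 UMIs, which kept 36 cells at 24hpa and 71 uninjured cells (the 12 and 59 others), and values were averaged over 20 thinnings. Cells of 24hpa carried 4.69 of the 5 lists on average, and all uninjured cells of the cluster 3.56. At least 4 lists were carried by 96.1% of cells at 24hpa and 56.8% of all uninjured cells. Without thinning the shares were 36 of 36 (100%, 90.3 to 100) and 82.8% (73.2 to 90.0). At full depth the shares of other clusters were high too, with 94.0% of uninjured Dopaminergic Neuron cells and 87.7% and 82.8% of Spinal Cord Progenitor cells at 24hpa and in the uninjured library. After thinning the marker-bearing cells were again apart, with 2.17 lists on average and 8.33% of cells with at least 4, against 3.85 lists and 66.6% in the other 59. At full depth they were less so. At least 4 lists were carried by 8 of the 12 (66.7%, 34.9 to 90.1) and by 85.3% of the other 75. The notochord list, carried by 11 of the 12 at full depth, includes cav1, which had 158 UMIs in them. Its next highest genes there, krt18 and krt8, had 45 and 22 UMIs. Carriage of the list without cav1 was not scored.

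After thinning no other cluster carried as many lists at 24hpa. Dopaminergic Neuron cells of the uninjured library carried 3.57 lists, with 55.1% of 44 cells at 4 or more, about level with all uninjured cells of the cluster and below the 59 outside the 12. Spinal Cord Progenitor carried 2.77 lists at 24hpa and 3.30 in the uninjured library. ROC carried 2.96 lists at 24hpa and 3.19 in the uninjured library, and Skeletal Muscle 1.24 and 1.27. All clusters were compared at the same 3000 UMIs per cell.

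**Figure D4:**
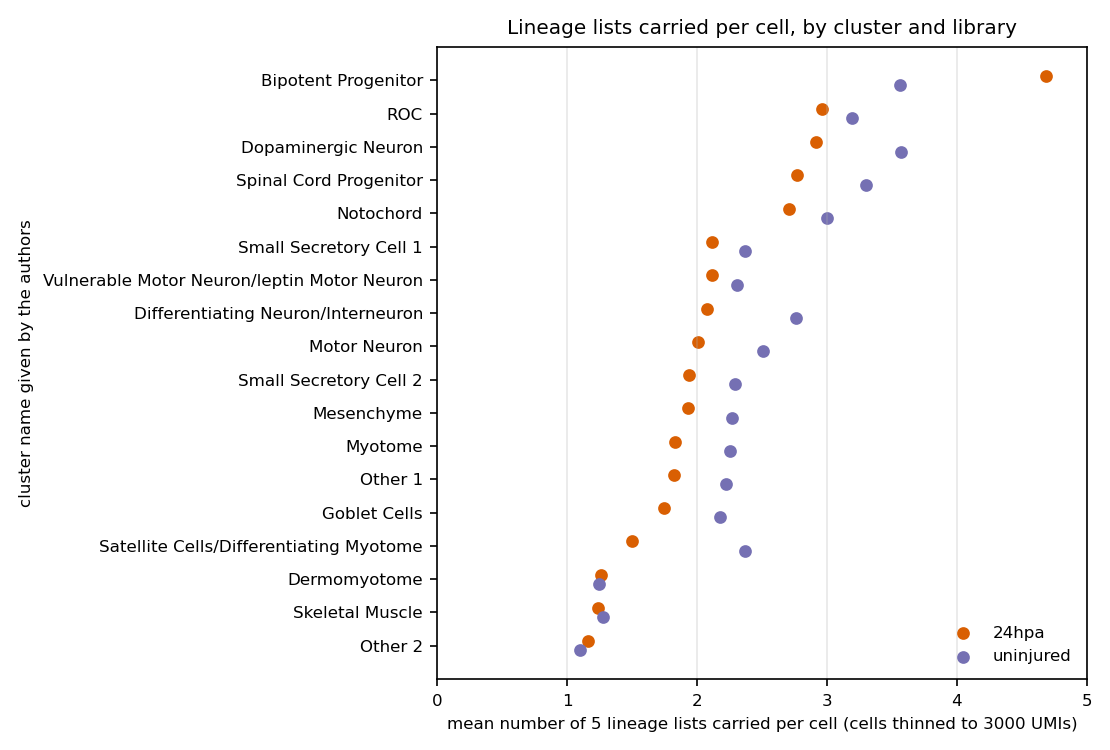
Mean number of the 5 lineage lists carried per cell after thinning to 3000 UMIs (horizontal axis, 0 to 5), by cluster and library. The cluster named Bipotent Progenitor stands at 4.69 lists at 24hpa and 3.56 in the uninjured library, and Skeletal Muscle at 1.24 and 1.27.

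Muscle transcripts were the largest part. They took a median of 2.73% of the UMIs of a cell at 24hpa (0.907 to 8.50), against 7.71% in the other uninjured cells (3.06 to 11.6) and 0.340% in the marker-bearing cells (0.160 to 10.6). In 2 of the 12, those with the lowest marker sums, the share was 10.6% and 6.12%, within the range of the other uninjured cells. The range of the 24hpa cells lay above that of Mesenchyme and Myotome cells at 24hpa, whose highest values were 0.568% and 0.533%. The uninjured cells outside the 12 were close to Skeletal Muscle of the same library, whose median was 7.47%. Of 23 muscle genes with at least 10 UMIs, 22 were higher in the cluster than in all other cells, against 25.0% of all genes with that minimum. All other cells include many that are not muscle. Among the 22 were cardiac actin (actc1) and the myosin light chains myl1 and mylpf, each found in all 123 cells.

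The other lineages appeared at lower levels in the same cells. At 24hpa the mesenchyme list took a median of 0.275% per cell, the notochord list 0.258%, the neuron list 0.214% and the epidermis list 0.199%. In Mesenchyme cells at 24hpa the mesenchyme list took 0.949%, but the neuron list took 0.0131% and the epidermis list 0.0114%. The epidermis list took 0.289% in the uninjured cells outside the 12, against 0.0477% in Skeletal Muscle cells of that library. Keratins such as krt5.7 were found in 34 of 36 cells at 24hpa, and the neuronal gene stmn2 in 30.

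Free RNA of the same library holds all of these lineages. The epidermis list stood at 1978 CPM in the cluster at 24hpa, which is 35.7% of its level in free RNA, and at 3972 CPM in the uninjured cells outside the 12, or 50.4%. In the marker-bearing cells it was 19.1%. In Skeletal Muscle the shares were 1.91% at 24hpa and 7.47% in the uninjured library, in Mesenchyme 3.64% and 5.52%, and in Spinal Cord Progenitor 27.6% and 29.98%. Other lists were nearer to free RNA or above it. At 24hpa the mesenchyme list stood at 144% of its level in free RNA, the neuron list at 119%, the notochord list at 79.1% and the muscle list at 61.4%. In the uninjured cells outside the 12 the muscle list stood at 179%, the mesenchyme list at 100.4%, the notochord list at 63.1% and the neuron list at 56.7%. Over 14374 genes, with each profile thinned to 100000 UMIs, the summed profile of the cluster at 24hpa had its highest correlation with free RNA of that library (r = 0.870), followed by Myotome (0.863), and that of the uninjured cells outside the 12 likewise with free RNA (0.876), followed by Skeletal Muscle (0.853). The marker-bearing cells had r = 0.793 with free RNA and 0.815 with Satellite Cells/Differentiating Myotome, their highest. These correlations are across genes, are descriptions, and compare profiles of the same library that share its free RNA.

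Fewer genes departed from free RNA in the cluster than in the 5 clusters of muscle and mesenchyme set beside it. At 24hpa 81.3% of 2729 genes were within 2-fold of free RNA, 435 (15.9%) were higher and 171 (6.27%) lower. In the uninjured cells outside the 12, 85.1% of 4017 genes were within 2-fold, 509 (12.7%) were higher and 312 (7.77%) lower. In Myotome and Mesenchyme at 24hpa the shares within 2-fold were 72.7% and 67.8%, and over all 5 they ran from 40.4% to 72.7% at 24hpa and from 52.6% to 68.9% in the uninjured library. How much of each droplet was free RNA was not measured directly, and cells that shared a droplet were not excluded.

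Some genes were above free RNA nonetheless. At 24hpa they included clec3b, a plasminogen-binding lectin of connective tissue, with 118 CPM in the cluster and 15.0 CPM in free RNA. Tenomodulin (tnmd), a membrane protein of tendons, had 219 CPM and 45.0 CPM, and the secreted Wnt inhibitor wif1 had 280.0 CPM and 61.9 CPM. Further ones were fbln7 and olfml3, both of extracellular matrix, and the secreted stc2. Those farthest above free RNA also included gpm6b-like, tat, clip2, f2rl3 and slit1, so the genes described here are examples. Among those below free RNA were the epithelial genes epcam, with 61.3 CPM and 504 CPM, and upk2 and tfap2a. In the uninjured cells outside the 12, the named genes farthest above free RNA were alpk3-like, with 94.3 CPM and 11.2 CPM, eya4-like, with 72.5 CPM and 10.1 CPM, the spectrin gene sptb, with 99.1 CPM and 15.7 CPM, and the matrix protein gene cilp, with 181 CPM and 29.2 CPM. The muscle myosin gene myh7b followed lower down, with 123 CPM and 29.2 CPM. The epithelial factor elf3 was among those below it, with 4.84 CPM and 37.0 CPM.

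Between the libraries, the gene with the highest ratio at 24hpa was clusterin. Clusterin (clu), a secreted chaperone, was found in 36 of 36 cells at 24hpa and 18 of 87 uninjured cells, with 1391 CPM and 40.1 CPM (log2 ratio 5.12, 4.49 to 5.81). The pentraxin gene ptx3 had 1610.2 CPM and 80.3 CPM (4.33, 3.87 to 4.81). angptl7, a secreted angiopoietin-like protein, had 1492 CPM and 102 CPM (3.87, 3.46 to 4.30). tnmd had 219 CPM and 18.2 CPM (3.58, 2.59 to 4.73), although in free RNA its ratio was -0.63. The ratio of clu in free RNA, in contrast, was positive. c1qtnf3 had 37 UMIs in 7 cells at 24hpa and 0 in uninjured cells. The others of the 10 highest were krt18l, LOC101734690, clmp, cd37 and col6a1, and all 10 remained higher without the marker-bearing cells. Ratios of these genes in other clusters are not given here, so they are not shown to be particular to this cluster.

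The 10 lowest held genes of the marker-bearing cells and genes of muscle and skin. apold1, pmp2, prx and cfd were of the first kind, and cfd, with 21.9 CPM at 24hpa and 635 CPM in uninjured cells (log2 ratio -4.86), had a ratio of 0.59 once the 12 cells were left out. prx had 4.38 CPM and 239 CPM (-5.77), and its ratio without them was still -4.27. The lectin itln1, secreted by skin cells, had 13.1 CPM and 416 CPM (-4.99, -7.27 to -3.42), with -3.56 in free RNA. The myosin gene myh7b had 4.38 CPM and 94.8 CPM (-4.44), and itln2, tal2 and 2 unnamed genes were the rest. Of the 10, 7 remained lower without the marker-bearing cells.

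**Figure D5:**
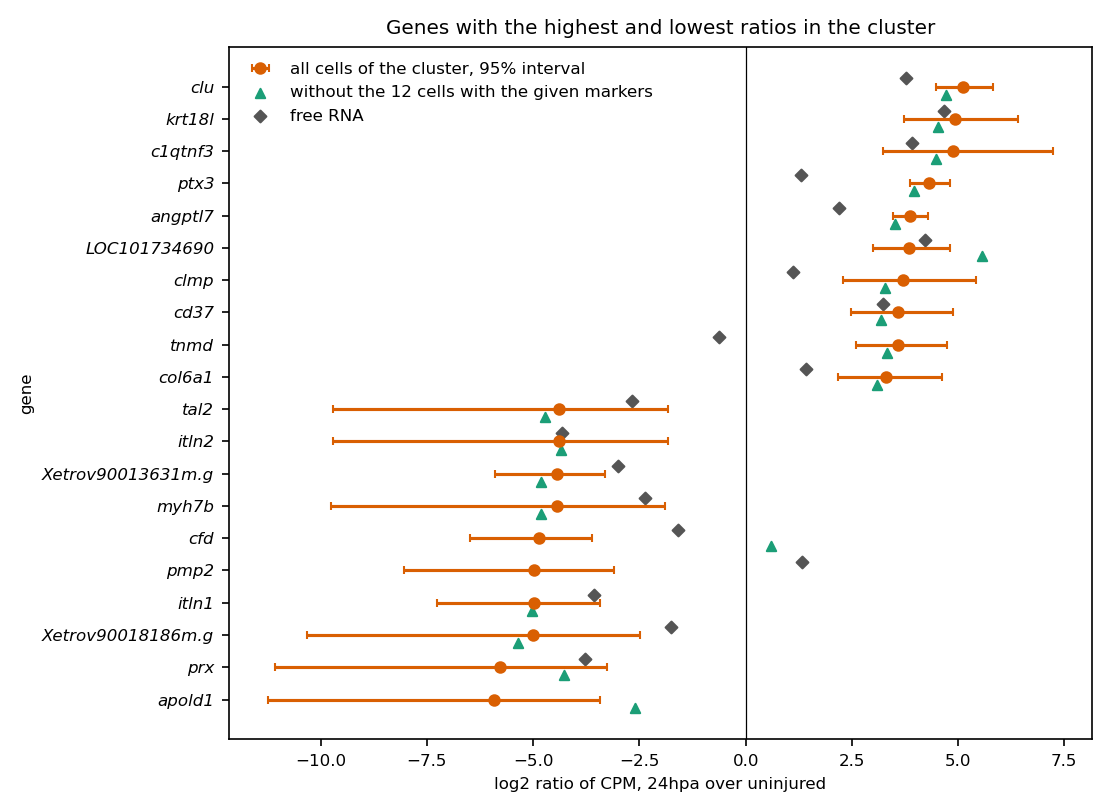
Log2 ratio of 24hpa over uninjured for the named genes (horizontal axis) in the whole cluster, with exact 95% intervals, and, as points where a ratio could be given, without the 12 marker-bearing cells and in free RNA. clu stands at 5.12, 4.71 and 3.77. cfd stands at -4.86 with the 12 cells and at 0.59 without them, the latter from only 5 and 6 UMIs.

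Lineage lists differed between the libraries in their own directions. Over all genes compared, 15.0% were higher at 24hpa and 16.3% lower. Of 20 muscle genes tested, 2 were higher at 24hpa and 16 lower, with a median log2 ratio of -1.21, against 0.06 for all genes. actc1 had 7443 CPM at 24hpa and 17367 CPM in uninjured cells (-1.22). Of 9 mesenchyme genes, 6 were higher and 1 lower, with a median of 1.97. The collagen gene col1a2 had 1335 CPM and 314 CPM (2.09), and the factor twist1 had 381 CPM and 96.7 CPM (1.98). The exception was the keratan sulfate proteoglycan gene lum, with 26.3 CPM and 188 CPM (-2.84). Of 9 neuron genes, 7 were higher and 0 lower, with a median of 1.70. The tubulin gene tubb2b had 490 CPM and 100.3 CPM (2.29), and snap25, a protein of synaptic vesicle release, had 473 CPM and 146 CPM (1.70).

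Response and matrix genes were measured too, against the same shares over all genes of 15.0% higher and 16.3% lower. Of 15 genes of matrix remodelling, 7 were higher at 24hpa and 2 lower, with a median of 1.04. The gelatinase gene mmp2 had 236 CPM and 32.8 CPM (2.85) and fibronectin (fn1) 958 CPM and 330.1 CPM (1.54), whereas the crosslinking enzyme lox had 17.5 CPM and 212 CPM (-3.60). Of 16 early response genes, 3 were higher and 9 lower, with a median of -1.09. fos had 188 CPM and 653 CPM (-1.80), and socs3, a brake on cytokine signalling, had the other sign (0.70, 0.30 to 1.09). Of 13 replication and mitosis genes, 4 were higher and 0 lower, with a median of 0.68, and cdk1 had 228 CPM and 133 CPM (0.77).

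The splits over all cells of the cluster moved with the scaling. With TMM factors, which lowered every ratio by 0.24, 290 genes (9.33%) were higher at 24hpa and 678 (21.8%) lower. The lists then had 6 higher and 1 lower of 9 for mesenchyme, 6 and 0 of 9 for neurons, 1 and 16 of 20 for muscle, 7 and 2 of 15 for matrix, 1 and 10 of 16 for early response, and 2 and 0 of 13 for replication. By a rule of at least 2-fold, added after seeing the data, 399 genes (12.8%) were higher and 544 (17.5%) lower. Over 3089 genes the ratio in the cluster had r = 0.642 with the ratio in free RNA, and 84.9% of 953 called genes had the same sign in both. When free RNA was subtracted, 397 genes (12.8%) were higher and 412 (13.3%) lower, of which 363 and 394 were among the 465 and 507 above. The endothelial list then had a log2 ratio of -3.82, against -3.43 as measured. The subtraction took all epidermis counts as free RNA, which set 35.7% of UMIs aside at 24hpa and 42.8% in the uninjured library.

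Cell cycle phases, which the authors called from scores of S and G2M genes, differed between the libraries. At 24hpa 22 of 36 cells were called S, 61.1% (43.5 to 76.9), against 28 of 87 uninjured cells, 32.2% (22.6 to 43.1), a difference of 28.9 percentage points (9.64 to 45.6). G1 was called in 4 of 36 cells (11.1%) and in 44 of 87 (50.6%), a difference of -39.5 points (-51.7 to -21.9), and G2M in 10 (27.8%) and 15 (17.2%), a difference of 10.5 points (-4.57 to 28.0). Of all other cells 24.7% were called S. Of the 12 marker-bearing cells 8 were called S, 2 G2M and 2 G1, against 20, 13 and 42 of the other 75 uninjured cells. Phases were not called again at equal depth, and the part of depth and of free RNA in the calls was not tested.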

How the data were processed

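The deposited UMI counts were made by the authors with Cell Ranger from 10x Genomics 3′ libraries. The genome build behind the counts is not given in the sources used here (the submitters' processing notes name GRCz11, a zebrafish build), so names are used as deposited and no coordinates are given. Clusters, classes, phases and the S and G2M scores behind them came from the authors' deposited table, which they computed in Seurat once the libraries had been integrated. Not used were 30 columns of the deposited tables. The sorting gate excluded doublets before cells were loaded, which does not cover cells that later shared a droplet. For those, scrublet in scanpy 1.11.5 marked 0.367% and 0.306% of cells at 24hpa and in the uninjured library, too few to have worked. Cells that shared a droplet were therefore not excluded.

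UMI counts were summed per group of cells and scaled to CPM. Log2 ratios have exact conditional 95% intervals, with 3 UMIs in place of 0 and no ratio where both sums were at or under 3. Free RNA is the sum over uncalled barcodes with 1 to 100 UMIs. Correlations used log2 of CPM plus 10. The interval rule was tested on simulated Poisson counts at the summed depths. These meet the assumption of the intervals and hold no differences between cells, so the simulation checks the computation only. Alternatives were TMM factors from edgeR 4.0.16, mean CPM per cell, other minimums, 1000 genes per cell, subtraction of free RNA, no doublets and each library alone. Most genes were named by a rule: the given markers, the endothelial and glia lists, the 20 leading genes, the 10 highest and 10 lowest ratios, and the top genes of the other lists. Some genes outside the rule were named too. Among them were sox17a, list genes with few or 0 UMIs such as spi1 and ptprc, and genes far from free RNA. The cluster, its markers, the lists and the rule were chosen with earlier results of these data known. Analyses used Python 3.11.15, scipy 1.17.1 and R 4.3.3.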

Additional observations from a re-analysis of the deposited data

How the results depend on the processing

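Of the alternatives to values that answer a comparison, 48 planned ones stayed within the spread or 1.5 times the value given, and 15 moved. The 48 include alternatives without doublets. Those removed only 1 cell of the cluster in each library, so they could hardly move and say little about stability. With at least 5 UMIs for a carried list, the endothelial list was carried by 0% of cells at 24hpa and 14.9% of uninjured cells, and at least 4 lineage lists by 48.3% of uninjured cells. With at least 2 UMIs the endothelial list was carried by 19.4% of cells at 24hpa and 25.3% of uninjured cells. After thinning, the endothelial list was carried by 0.417% of cells at 24hpa, and at least 4 lineage lists by 56.8% of uninjured cells. At 24hpa alone, 678 genes were higher in the cluster than in other cells. The log2 ratio of the endothelial list in the cluster over other cells, 3.07, was 0.24 at 24hpa alone, 3.44 in the uninjured library alone and 2.09 as a mean of CPM per cell. Between the libraries it was -3.43, and -2.65 as a mean per cell. With TMM factors 290 genes were higher at 24hpa, and with at least 100 UMIs 248 were higher and 290 lower. In the cells that carried the endothelial list, TMM factors gave 41 higher and 334 lower.

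Without the marker-bearing cells, which was chosen after seeing the data, the endothelial list was carried by 12% of uninjured cells, its log2 ratio in the cluster over other cells was 0.049, and its ratio between the libraries turned to 0.061. The cells left out were chosen in part by genes of this list, so these values are no test. The ratio of cfd between the libraries was then 0.59, from 5 UMIs at 24hpa and 6 in the other uninjured cells, too few to give a direction. That of egfl7, computed as 0.44, is an upper bound that gives no direction, since 24hpa had 0 UMIs, for which 3 were set, and the other uninjured cells 4. The requirement of 5 UMIs left 0 cells at 24hpa with the endothelial list, so the comparison within such cells could not be run. No paired analysis was possible because each group had 1 library, and for the same reason no replicate could be left out. At 36 and 87 shallow cells, the count of 0 marker-bearing cells at 24hpa allows a share of up to 8.33%.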
